A study of Mus musculus with 12 samples.

Results

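Obox and related cleavage-stage homeobox genes were followed in bulk RNA-seq of mouse totipotent potential stem (TPS) cells and extended pluripotent stem (EPS) cells. They were 7 named genes of the 55401 in the count files, Obox1, Obox2, Obox3, Obox5, Obox6, Crxos and Duxbl1, found by matching gene identifiers without their version to the GENCODE M21 symbols. All 7 had at least 1 count, and 3 of them, Obox6, Crxos and Duxbl1, passed the filter on low counts and were tested. The 12 libraries came from 3 lines of TPS and 3 of EPS cells, with 2 technical replicates of each line. Both cell types were grown on feeder cells, EPS cells in LCDM medium and TPS cells in VCED medium, which is made with a 4C basic medium. The study names the TPS condition CPEC after its 4 small molecules, CD1530 (an agonist of RARγ), VPA (which inhibits histone deacetylases), EPZ004777 (which inhibits DOT1L) and an inhibitor of GSK3. TPS cells were made there from EPS cells, from embryonic stem (ES) cells or from embryos at the 2-cell stage. The origin of the sequenced TPS lines is not given in the sources used here. The study made embryo-derived TPS lines from mice of the B6-Tg strain, and the strain and genotype of the lines sequenced here were not found in those sources. Whether the lines of a group were derived independently is not stated, so p-values measure the spread between these lines.

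Homeobox genes encode transcription factors that bind DNA through a homeodomain, whose recognition helix lies in the major groove of DNA. The Obox genes (oocyte-specific homeobox) form a mouse family of paired-like homeobox genes in a tandem cluster on chromosome 7, with transcripts in oocytes and early embryos, and they act redundantly in activating the zygotic genome around the 2-cell stage. Crxos, also known as Egam1, lies beside the photoreceptor gene Crx and encodes a protein with homeodomains that is found in preimplantation embryos. Duxbl1 belongs to the double homeobox family, together with Dux (Duxf3 in the annotation), which activates 2-cell genes.

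Sequences are shown for the stretch that encodes this helix, since its likeness between genes bears on how reads can be assigned. Each is 60 bases of the annotated GENCODE M21 coding sequence (GRCm38), 5′ to 3′ on the gene's strand, found by searching the reading frame on the coding strand for the letters TGGTT, any 4 bases and then AA, with these fixed letters in capitals.
Obox1: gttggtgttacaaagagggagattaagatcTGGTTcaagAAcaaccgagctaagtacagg
Obox3: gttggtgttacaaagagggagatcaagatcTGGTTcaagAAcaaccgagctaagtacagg
Obox5: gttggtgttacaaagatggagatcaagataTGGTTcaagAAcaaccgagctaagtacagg
Obox6: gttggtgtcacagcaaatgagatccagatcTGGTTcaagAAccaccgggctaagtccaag
Duxbl1, match 2: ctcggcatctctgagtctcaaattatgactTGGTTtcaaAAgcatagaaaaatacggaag
Duxbl1, match 3: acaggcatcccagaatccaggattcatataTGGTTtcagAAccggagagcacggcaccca

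The Obox1 and Obox3 stretches differed at 1 of 60 bases and those of Obox3 and Obox5 at 2, whereas Obox6 differed from Obox3 at 11 and from Obox1 and Obox5 at 12 each. Of the Obox sequences of these members, that of Obox6 stood farthest from the others. Duxbl1 held 3 matches, of which match 2 and match 3 are shown, and these differed from each other at 29 of 60 bases. The annotated Obox2 coding sequence of 453 bases held no match. Crxos held no full match either, and 2 in-frame occurrences of the shorter TGGTT, each printed with the 5 letters in capitals.
Crxos, occurrence 1: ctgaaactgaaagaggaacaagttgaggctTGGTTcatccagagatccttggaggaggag
Crxos, occurrence 2: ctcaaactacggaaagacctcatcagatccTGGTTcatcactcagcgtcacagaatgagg
The Obox6 stretch lies at chr7:15833918-15834406 on the minus strand and that of Obox3 at chr7:15626293-15626822, also minus. The Duxbl1 stretches lie at chr14:25984274-25986797 and chr14:25987587-25988791 on the plus strand, and the Crxos stretches at chr7:15897526-15898477 and chr7:15902981-15903732, also plus. Each of these spans an intron, so that the bases come from neighbouring exons. A match of these letters is a description of the sequence.

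Total counts per library ranged from 13676051 to 21821707, and counts of the 2 technical replicates were summed, giving 29877215 to 38466294 per line. Expression is given in CPM, a gene's counts scaled to its library total and TMM factor, and lines were compared by edgeR's quasi-likelihood test with Benjamini-Hochberg adjustment over 17468 tested genes and a threshold of 0.05. Among all tested genes, 2509 were called higher in TPS lines (14.4%) and 1282 lower (7.34%). Pluripotent cell markers (Pou5f1, Sox2, Nanog and Zfp42) summed to 1170 to 1510 CPM in TPS and 1700 to 2180 CPM in EPS lines, and 2-cell-like markers (Zscan4c, Zscan4d, Tcstv1, Tcstv3 and Zfp352) to 110 to 150 CPM in TPS and 0.0588 to 0.0853 CPM in EPS lines. For a bulk sample, a larger share of cells with a transcript and more transcript per cell cannot be told apart.

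Of the 7 genes, 3 were tested and 1 of these 3, Obox6, was called higher in TPS lines by edgeR, beside 14.4% of all tested genes. With only 3 genes tested, their share cannot be set against that of all genes. None was called lower by edgeR, DESeq2 or limma-voom, the fold changes of the 3 tested genes all being above 0, and Obox6 was also the 1 tested gene with an unadjusted p-value under 0.05 in edgeR. Obox6 was 9.97-fold higher in TPS than in EPS lines, a fold set against few EPS counts. Its interval of 2 standard errors ran from 1.93 to 4.70 on the log2 scale. Crxos and Duxbl1 had more counts in TPS than in EPS lines on average, but the lines of the groups overlapped and neither passed the test. Obox1, Obox2, Obox3 and Obox5 had 17 counts or fewer each over 12 libraries, all of them in TPS libraries.

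Obox6 (ENSMUSG00000041583.8, GRCm38 chromosome 7, 15833241 to 15839678, minus strand) is a member of the Obox family that has been used to raise the yield of reprogramming to pluripotency. Its level was 4.07, 3.24 and 5.81 CPM in TPS lines 1, 2 and 3. In EPS lines 1, 2 and 3 it was 0.946, 0.147 and 0.228 CPM. The lowest TPS line was above the highest EPS line, as for 23.5% of all tested genes. Means were 4.37 ± 1.31 CPM (SD, n = 3) for TPS lines and 0.44 ± 0.44 CPM (SD, n = 3) for EPS lines, a log2 fold change of 3.32 (standard error of the log2 value, SE, 0.692, adjusted p = 0.0156). An exact permutation test over the 6 lines gave p = 0.1 (two-sided), the smallest value that 3 lines against 3 allow. Counts behind these levels were 89 and 74, 67 and 58, and 82 and 101 in the libraries of the TPS lines. In the EPS lines they were 11 and 18, 1 and 4, and 5 and 3, so every EPS library held fewer Obox6 counts than every TPS library. Within the EPS group, line 1 held 29 of the 42 counts. The technical replicates of TPS line 1 differed beyond counting noise (5.16 and 3.29 CPM, exact binomial test adjusted over 18 such tests, p = 0.0196), by less than the difference between the groups. Without EPS line 1 the log2 fold change was 4.49 (edgeR adjusted p = 0.00898), so that this line moved the size of the difference. Without TPS line 3 it was 3.05 and the adjusted p was 0.0503.

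**Figure D1:**
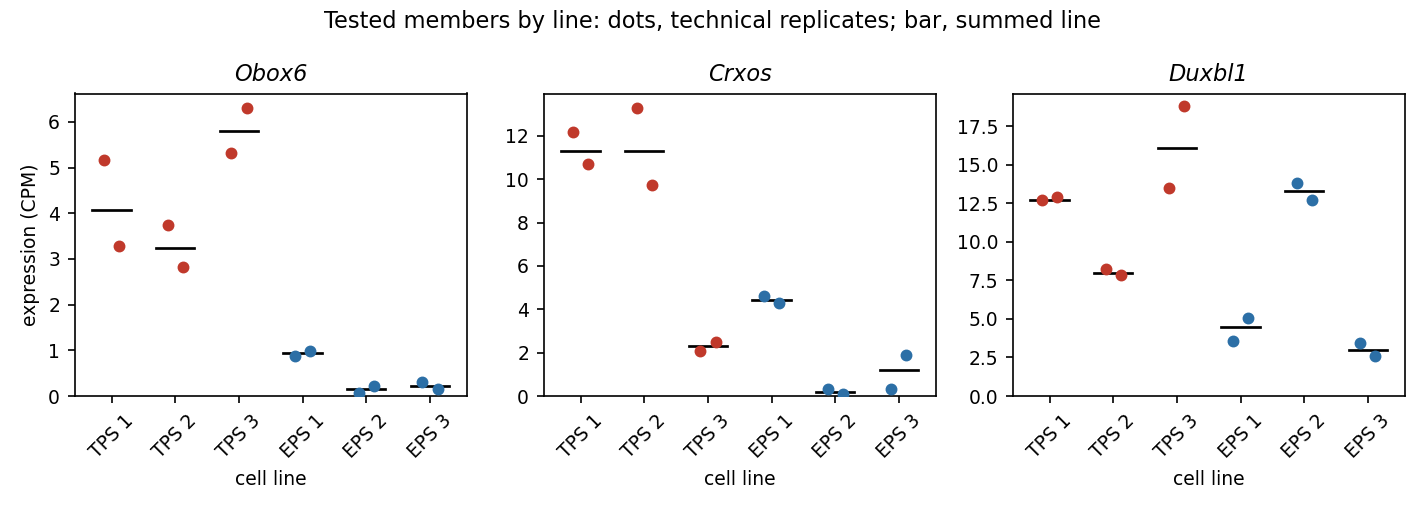
Expression in CPM (vertical axis, each panel with its own scale from 0) of Obox6, Crxos and Duxbl1 in the 3 TPS lines (red) and 3 EPS lines (blue). Dots are the 2 technical replicates of a line and bars are the line after summing. The TPS lines of Obox6 lie at 3.24 CPM or more and its EPS lines at 0.946 CPM or less, whereas the Crxos and Duxbl1 lines of the groups overlap.

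Crxos (ENSMUSG00000074365.13, chromosome 7, 15882617 to 15904020, plus strand) varied most between lines of a group. It stood at 11.3 CPM in both TPS line 1 and TPS line 2, and at 2.29 CPM in TPS line 3. In EPS lines 1, 2 and 3 it was 4.44, 0.206 and 1.19 CPM. TPS line 3 was therefore below EPS line 1, and the groups overlapped. Means were 8.28 ± 5.19 CPM (SD, n = 3) for TPS lines and 1.95 ± 2.21 CPM (SD, n = 3) for EPS lines, and the log2 fold change was 2.10 and missed the threshold (SE 0.989, adjusted p = 0.165, exact permutation p = 0.2, two-sided). Its interval of 2 standard errors ran from 0.12 to 4.07. EPS line 1 moved this value most, since without it the log2 fold change of Crxos was 3.52 (edgeR adjusted p = 0.0626). The highest line was 4.95 times the lowest in TPS and 21.5 times in EPS. The within-group SD of log2(CPM + 0.5) was 1.20 in TPS and 1.41 in EPS lines, which are percentiles 97.9 and 99.2 of all tested genes. The 2 technical replicates of EPS line 3 had 5 and 37 counts, 0.314 and 1.91 CPM, which differed beyond counting noise (exact binomial test, adjusted p = 0.000114), and 0.446% of 14814 genes differed by more than 2 on the log2 scale between these replicates. TPS line 2 had 237 and 200 counts (adjusted p = 0.00775 in the same exact test). Tested without a filter on low counts, the log2 fold change of Crxos was 2.08 with an edgeR adjusted p of 0.0396. With the 12 libraries as separate samples it was 2.15 with an adjusted p of 0.0305, a value that counts repeat libraries of a line as if they were replicates and is therefore too small.

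Crx, the neighbouring homeobox gene needed for photoreceptor development, starts at 15879968 on the minus strand and does not overlap Crxos in the annotation. It had 4 counts in TPS libraries and 0 in EPS libraries and was not tested.

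Duxbl1 (ENSMUSG00000048502.14, chromosome 14, 25978577 to 25990088, plus strand) was counted in every library. Its level was 12.7, 7.97 and 16.1 CPM in TPS lines 1, 2 and 3, and 4.47, 13.3 and 2.99 CPM in EPS lines 1, 2 and 3. EPS line 2 was above TPS lines 1 and 2, and the other EPS lines were below every TPS line. Means were 12.3 ± 4.09 CPM (SD, n = 3) and 6.91 ± 5.56 CPM (SD, n = 3), and the log2 fold change was 0.83 (SE 0.555, adjusted p = 0.319, exact permutation p = 0.3, two-sided), with an interval of 2 standard errors from -0.28 to 1.94. EPS line 2 decided this value, since without it the log2 fold change was 1.70 and the edgeR adjusted p 0.0425. The libraries of EPS line 2 had 209 and 242 counts, against 45 and 92 in line 1 and 55 and 50 in line 3, so both technical replicates of line 2 were high. The technical replicates of TPS line 3 had 207 and 301 counts and differed beyond counting noise (exact binomial test, adjusted p = 0.00171).

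Reads on the coding sequence of Duxbl1 cannot be told apart from those on its copies. The annotated coding sequences of Duxbl1, Duxbl2 and Duxbl3, all of 1050 bases on chromosome 14, differed at 0 bases. Duxbl2 and Duxbl3 had equal counts in 8 of 12 libraries, with a largest difference of 3 counts, and Duxbl1 had 91.9% of the total counts of Duxbl2. Their log2 fold changes were 0.73 (edgeR adjusted p = 0.367) and 0.72 (edgeR adjusted p = 0.371), and the values of the 3 genes are not independent measurements. Without EPS line 2 these were 1.57 (adjusted p = 0.0474) and 1.56 (adjusted p = 0.0478).

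**Figure D2:**
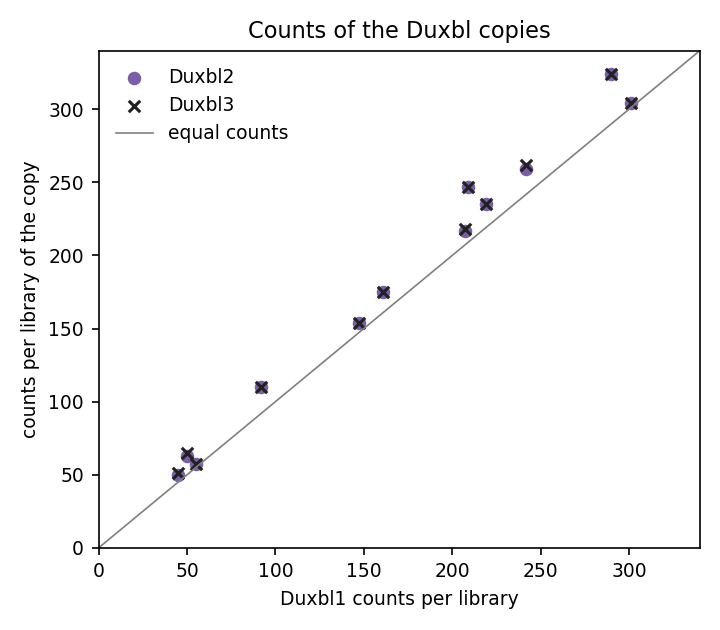
Counts per library of Duxbl2 (circles) and Duxbl3 (crosses) on the vertical axis against the counts of Duxbl1 on the horizontal axis, in the 12 libraries, with a line of equal counts. The symbols of Duxbl2 and Duxbl3 fall on each other, with equal counts in 8 of 12 libraries, and lie close to the line.

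The other 4 genes were close to undetected. Obox3 (chromosome 7, 15479825 to 15639902, minus strand) had 17 counts, all in TPS lines 1 and 2, with 2 and 4 counts in the libraries of line 1, 9 and 2 in those of line 2 and 0 in line 3. This corresponds to 0.15 and 0.285 CPM in those lines. Obox1 (15388948 to 15556866, plus strand) had 1 count and Obox2 (15388721 to 15398545, plus strand) had 2, all in TPS line 2. Obox5 (15750131 to 15759800, plus strand) had 2 counts, in TPS line 3. All 4 had 0 counts in every EPS library, which allows a level of up to 0.238 CPM (3 counts in the EPS library with the smallest scaled total), so a difference between the groups was not detectable at this depth for Obox1, Obox2 and Obox5. Obox3 stood above that level in TPS line 2 alone. Tested without a filter on low counts, their edgeR adjusted p-values were 0.58 for Obox1, 0.497 for Obox2, 0.0612 for Obox3 and 0.497 for Obox5. The transcripts of Obox1 and Obox2 were 98.8% identical over 96.8% of Obox1, and reads from either could be assigned to the other.

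Scaled to exon length, levels in TPS lines were 3.25 ± 0.977 CPM per kb for Obox6, 2.8 ± 1.76 for Crxos and 2.57 ± 0.856 for Duxbl1 (SD, n = 3 each), and neighbours in this order differed by less than their SDs. In EPS lines the order of the means was turned round, with Duxbl1 at 1.44 ± 1.16, Crxos at 0.658 ± 0.749 and Obox6 at 0.328 ± 0.327 CPM per kb, and neighbours again differed by less than the larger of their SDs. The level of Obox6 per kb lay at the 47.9th percentile of tested genes in TPS and at the 18.8th in EPS lines. For Crxos these percentiles were 44.8 and 26.5, and for Duxbl1 42.8 and 36.8. All 4 untested genes were at 0.0454 CPM per kb or less in TPS lines.

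The rest of the Obox family was counted to see whether Obox6 was alone. The annotation names 55 Obox genes, 7 of them protein-coding, 39 Obox4 pseudogenes and 8 Obox3 pseudogenes. Of the 55, 30 had a count in TPS and 3 in EPS libraries, and the family held 931 counts in TPS and 46 in EPS libraries. The 5 that passed the filter were Obox6 and the pseudogenes Obox4-ps12, Obox4-ps23, Obox4-ps27 and Obox4-ps28. The 4 pseudogenes had 0 counts in every EPS library and passed through TPS counts alone, so they could differ in 1 direction only and their calls are not support for a difference of the family. Obox7 had 1 count, in a TPS library, and no Obox8 count was found.

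Obox4-ps28 (chromosome 7, 15442998 to 15444936, plus strand) had the most counts of the tested pseudogenes. It stood at 0.349, 0.777 and 0.603 CPM in the TPS lines and had 0 counts in every EPS library, which makes it at least 2.42-fold higher. Obox4-ps12, Obox4-ps23 and Obox4-ps27 also had 0 EPS counts and were at least 1.64-fold, 1.65-fold and 1.43-fold higher. The 39 Obox4 pseudogenes together had 3.04, 4.32 and 4.29 CPM in TPS lines, and 0, 0.0588 and 0.0569 CPM in EPS lines. These were 424 and 4 counts. Since shared reads can be counted more than once in this sum, no lower bound of its fold is given. The same 60 bases, printed here for Obox4-ps28, were found in 16 of these 39 pseudogenes, and they differed from the Obox6 stretch at 18 bases. For a pseudogene they are a stretch of the annotated transcript and not of a coding sequence.
Obox4-ps28: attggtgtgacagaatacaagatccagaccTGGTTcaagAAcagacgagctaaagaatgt
Copies shared reads here too. Obox4-ps19, Obox4-ps20 and Obox4-ps21 had equal counts in 12 of 12 libraries, so the sum can hold a read more than once, and which pseudogene a read came from was not resolved. Obox6 differs in this, with 1 transcript in the annotation that matched it over 50% of its length or more at 90% identity, Obox6-ps1, which had 0 counts.

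Summed over all 55 genes, Obox expression was 7.38, 8 and 10.3 CPM in TPS lines 1, 2 and 3. In EPS lines it was 0.946, 0.206 and 0.284 CPM, so every TPS line was above every EPS line. The log2 fold change of this sum was 4.17 (SE 0.587, edgeR adjusted p = 0.00456). Of its 931 TPS counts, 424 were those of Obox4 pseudogenes, whose 4 tested members could only be called higher. Copies can also repeat a read, so this value describes the sum and is not support for a difference of the family. Summed over the 7 protein-coding genes alone, the log2 fold change was 3.38 (SE 0.684, edgeR adjusted p = 0.0141). Without EPS line 1 these values were 5.08 and 4.56. Obox6 made up 55.1%, 40.5% and 56.1% of the Obox counts in TPS lines, and 100%, 71.4% and 80% in EPS lines, of 29, 7 and 10 counts. Obox4 pseudogenes made up 41.2%, 54% and 41.4% in TPS lines and 0%, 28.6% and 20% in EPS lines. These shares count shared reads as often as the files list them, and with so few EPS counts they are a description of the sum and no measure of Obox6.

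**Figure D3:**
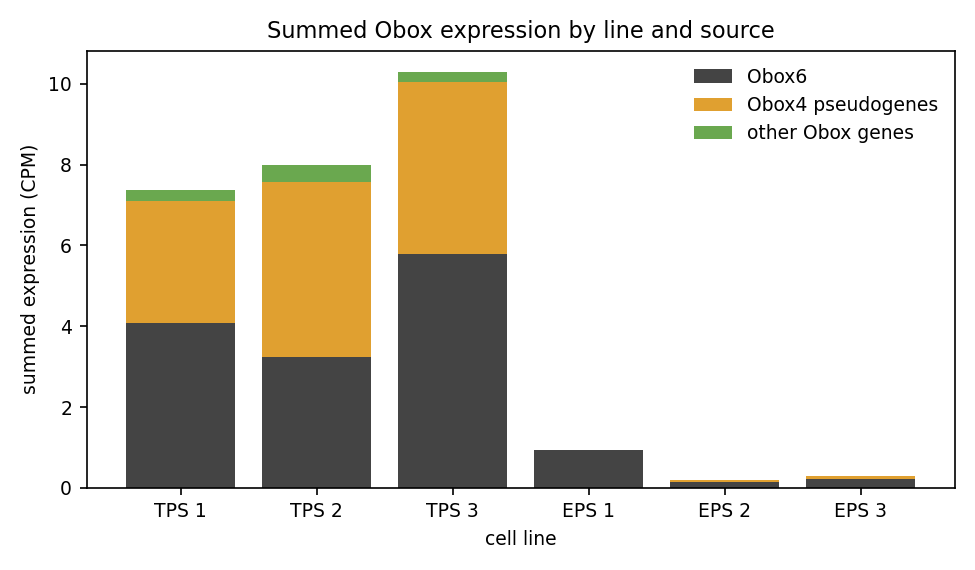
Summed expression of the Obox family in CPM (vertical axis, from 0) in each line, stacked by source: Obox6, the 39 Obox4 pseudogenes and the other Obox genes. The TPS bars reach 7.38, 8 and 10.3 CPM with about equal parts of Obox6 and Obox4 pseudogenes, and the EPS bars stay at 0.946 CPM or less.

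Duxf3 (chromosome 10, 58229979 to 58232675, minus strand), the Dux gene, was measured beside Duxbl1 since both are double homeobox genes. It was at 2.82, 6.24 and 5.46 CPM in the TPS lines and had 0 counts in every EPS library, so its level was at least 20.3-fold higher. It passed the filter through TPS counts alone, so that higher was the only call possible. Its lines did not overlap, whereas those of Duxbl1 did, and the difference between the fold changes of these genes was not tested.

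Other gene lists give the setting. Of 26 tested paired-like homeobox genes outside the Obox and Dux families, TPS lines were called higher for 10 and lower for 0, and the median log2 fold change was 2.04 beside -0.00 over all tested genes, of which 14.4% were called higher and 7.34% lower. For 4 of the 26, whose EPS libraries held at most 3 counts each, higher was the only call possible, and with these at their lower bound the median was 1.76. The 2 most abundant of those called were Rhox5, a reproductive homeobox gene of the X chromosome, with 150 ± 81.4 CPM (SD, n = 3) for TPS lines and 3.44 ± 3.88 CPM (SD, n = 3) for EPS lines, and Prrx1, a mesenchymal homeobox gene, with 79 ± 34.7 and 20.8 ± 11.8 CPM (SD, n = 3 each). Nobox, an oocyte homeobox gene, had 46 counts in TPS and 5 in EPS libraries, with 3 or fewer in each of the latter, which makes TPS lines at least 1.85-fold higher (edgeR adjusted p = 0.0494), a call that was lost in 8 of 13 alternatives. Of 12 regulators of zygotic genome activation, 4 were called higher (Klf17, Zfp352, Dppa2 and Duxf3) and 4 lower (Klf4, Klf5, Esrrb and Nr5a2), with a median of 0.08. Of those higher, Zfp352 and Duxf3 had 0 counts in every EPS library and could be called in no other direction. Among those called lower, Esrrb had 354 ± 36.1 CPM in TPS and 907 ± 97.9 CPM in EPS lines, and Klf4 109 ± 16.5 and 691 ± 195 CPM (SD, n = 3 each). The lists share genes: Klf4 and Esrrb are also among the pluripotency genes below, and Zfp352 among the 2-cell marker genes.

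All 17 tested 2-cell marker genes had 3 counts or fewer in every EPS library and passed the filter through TPS counts, so that higher was the only call possible. With each at its lower bound, their median log2 fold change was 5.66, and 9 of the 18 in the list had 0 counts in every EPS library. Zscan4f stood at 110 ± 23.8 CPM (SD, n = 3) in TPS lines, at least 461-fold higher, and Zscan4c at 89.3 ± 16.7 CPM (SD, n = 3), at least 374-fold higher. Of 4 tested oocyte genes, 2 were called higher, Nobox and Nlrp14, a maternal NLR-family gene, at 5.4 ± 2.36 and 0.601 ± 0.215 CPM (SD, n = 3 each). The defining oocyte markers Zp1, Zp2, Gdf9 and Bmp15 were at 0.289 CPM or less on average in both groups, and the oocyte marker sum of 8.54 to 10.7 CPM in TPS and 4.01 to 11.3 CPM in EPS lines came mostly from Zp3. Of 12 pluripotency genes, 7 were called lower and 0 higher, with a median of -0.92, among them Dppa5a (1130 ± 150 and 2300 ± 507 CPM) and Tdgf1 (579 ± 76.8 and 1090 ± 286 CPM, SD, n = 3 each).

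Markers of cells other than pluripotent ones also moved with the groups. Of 16 fibroblast genes, TPS lines were called higher for 10 and lower for 0, the median log2 fold change was 1.97, and Col1a1 and Col1a2, which encode type I collagen, had 1830 ± 494 and 993 ± 325 CPM in TPS and 297 ± 190 and 236 ± 135 CPM in EPS lines (SD, n = 3 each). The 8 fibroblast feeder markers summed to 2950 to 5250 CPM in TPS and 260 to 1140 CPM in EPS lines, with none of the 8 at 0. Their part in the Obox, Crxos and Duxbl1 values was not tested. By line the sum was 5250, 2980 and 2950 CPM in TPS lines 1, 2 and 3, where Crxos was lowest and Obox6 and Duxbl1 were highest in line 3. It was 260, 1080 and 1140 CPM in EPS lines 1, 2 and 3, where Obox6 and Crxos were highest in line 1 and Duxbl1 in line 2. Of 8 skeletal muscle genes, 4 were tested and 2 called higher, Pax3 (1.02 ± 0.629 and 0.0775 ± 0.0739 CPM) and Acta1 (7.2 ± 8.18 and 0.45 ± 0.0306 CPM, SD, n = 3 each). Acta1 was at 16.6 CPM in TPS line 2, and at 2.62 and 2.35 CPM in TPS lines 1 and 3. The 4 skeletal muscle markers Pax3, Pax7, Myf5 and Myod1 summed to 1.05 to 2.3 CPM in TPS and 0.171 to 0.235 CPM in EPS lines, and Myf5 had 0 counts in EPS libraries. Their part in the Duxbl1 values, a gene also expressed in developing muscle, was not tested.

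Genes around the members were set beside the 14.4% called higher and 7.34% called lower over all tested genes, and no region was tested as such. Within 500 kb of a member or another Obox gene on chromosome 7, 17 other genes were tested, with 3 called higher (17.6%) and 1 lower (5.88%). Those higher were Ehd2, which acts at caveolae (log2 fold change 2.78), Meis3, a TALE homeobox gene (1.51), and C5ar1, the receptor of complement C5a (2.80), and Nop53, a ribosome biogenesis gene, was lower (-0.67). On chromosome 14, around Duxbl1, 3 of 17 were called higher (17.6%) and 0 lower, namely Zcchc24 (1.28) and the lincRNAs 4933413J09Rik (3.27) and Gm34059 (at least 2.6-fold). Around the 1 Obox pseudogene with a count on chromosome 17, 2 of 24 were called higher (8.33%) and 0 lower, H2-T22 (1.38) and H2-M10.4 (at least 2.62-fold).

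The 3 tested genes were compared with each other and with all other tested genes over the 6 lines. Pearson's correlation of log2(CPM + 0.5), given as a description of 6 lines that fall into 2 groups, was 0.72 between Obox6 and Crxos, 0.54 between Obox6 and Duxbl1 and 0.02 between Crxos and Duxbl1. The genes most like Obox6 over these lines were Fez2, Zan and Otud7a, with r of 0.9978, 0.9943 and 0.9909. For Crxos they were Shisal2a, Fsd2 and Fbxo41 (0.9937, 0.9891 and 0.9886). For Duxbl1 they were its copies Duxbl2 and Duxbl3 (0.9986 and 0.9985), then Gm23849 (0.9898). For the summed Obox counts they were Arhgef10, Gabarapl2 and Hpca (0.9976, 0.9971 and 0.9966). These were picked as the highest among 17468 genes.

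The direction of each tested gene was the same in every analysis tried. Over 17 alternatives the log2 fold change of Obox6 ranged from 2.89 to 4.49 and it was called at 0.05 in 16 of them. That of the 7 protein-coding Obox genes together, nearly all of it Obox6, ranged from 2.95 to 4.56 with adjusted p-values up to 0.0459. That of all summed Obox counts ranged from 3.79 to 5.08, and 424 of its 931 TPS counts were those of the Obox4 pseudogenes. The 4 tested ones could only be called higher, and copies can repeat a read. Crxos ranged from 1.54 to 3.52 and was called in 2, and Duxbl1 ranged from 0.45 to 1.70 and was called in 1.

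**Figure D4:**
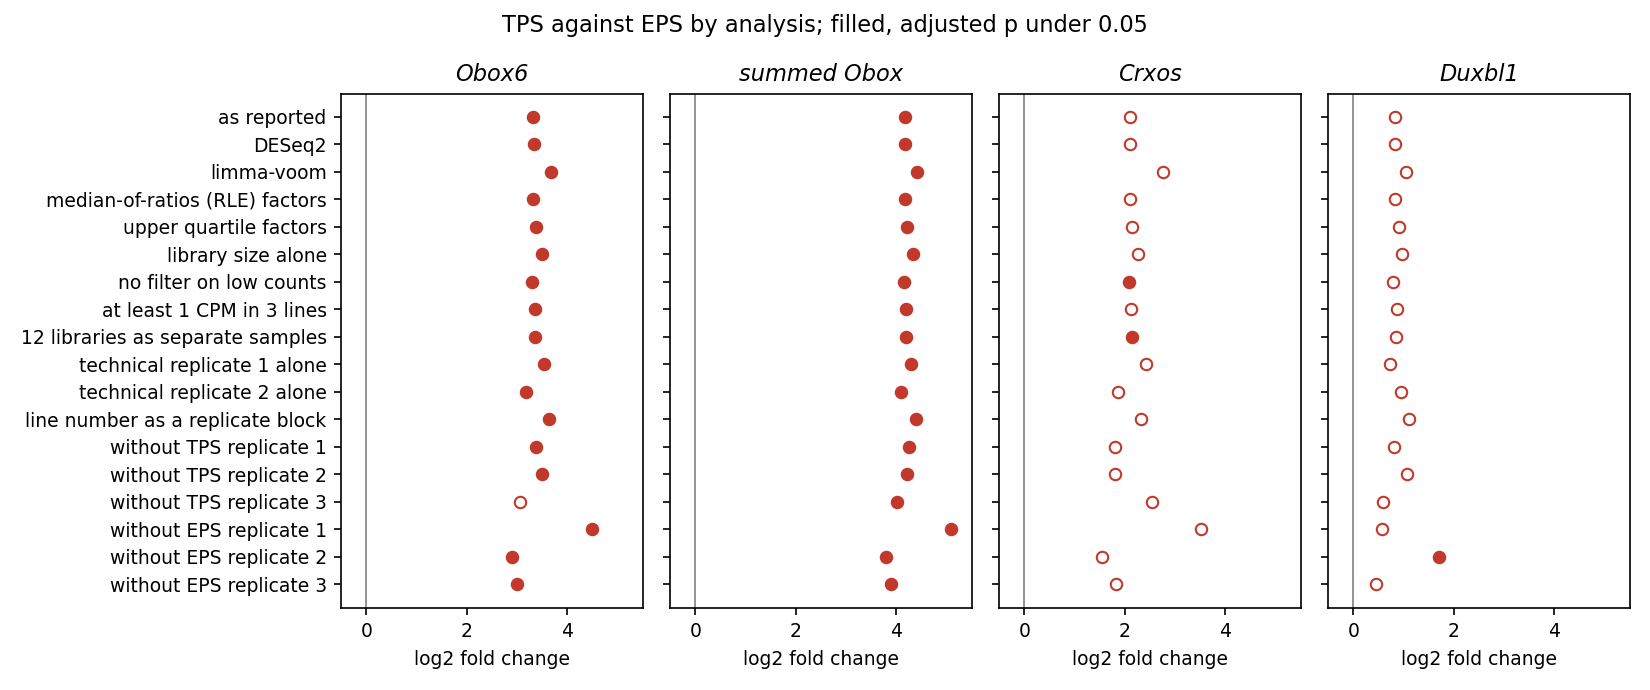
Log2 fold change of TPS against EPS lines (horizontal axis) for Obox6, the summed Obox counts, Crxos and Duxbl1 as reported and under each of 17 alternatives (rows). Filled points have an adjusted p under 0.05 and open points do not. The summed Obox counts are filled in every row, Obox6 in all but the row without TPS replicate 3, Crxos in 2 rows and Duxbl1 in 1. The summed counts hold Obox4 pseudogenes, whose tested members could only be called higher and whose copies can repeat a read. Their filled rows are therefore no added support.

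Promoter sequences of RefSeq (GRCm38.p6) were present for 5 of the 7 genes, as 7 windows, and not for Obox6 and Duxbl1. The bicoid-type homeodomain core GGATTA, searched on both strands, occurred in the Obox3 window, and in 7.06% of 32851 windows of the same length. No other motif searched, also on both strands, occurred in a window of these genes: the DUX motif (TGATT, any base, AATCA, in 0.0335% of all windows), the ZSCAN4 motif (TGCACAC, in 4.4%) and the DR5 retinoid element (AGGTCA, any 5 bases, AGGTCA, in 0.00913%).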

How the data were processed

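RNA was extracted from TPS and EPS cells, enriched with oligo(dT) beads, randomly primed and sequenced as paired-end reads. Per the labels and the study's methods, the authors trimmed reads with fastp 0.19.7, mapped them with STAR 2.7.3a to mouse genome build mm10 (GRCm38.p6) and deposited raw counts per gene without normalization. The counting tool, annotation release, use of strand and treatment of multi-mapped reads are not given in the sources used here, so near-identical, overlapping and antisense genes can share reads. Some copies, such as Obox4-ps19, Obox4-ps20 and Obox4-ps21, carried equal counts in the files.

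Groups, line numbers and technical replicates were taken from the labels. Technical replicates were summed by line, and 3 TPS lines were compared with 3 EPS lines in edgeR 4.0.16 (R 4.3.3) by the quasi-likelihood test with TMM normalization and the filterByExpr filter (10 counts, 15 in total). Of 55401 identifiers, 55141 matched GENCODE M21 without the version. SEs were the absolute log2 fold change over the square root of F. A group with 3 counts or fewer in every library was treated as at the floor, and folds against it are lower bounds (0.238 CPM for EPS libraries). Floors and binomial tests cover counting error alone, since PCR copies of a molecule were not marked. Copies were found with blastn 2.17.0 between annotated transcripts.

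In a simulation with a dispersion of 0.106 and the means of these lines, 170 of 190 tested genes changed 4-fold were called (89.5%) and 7 unchanged genes were called, among 17180 genes tested. Every simulated gene had the same dispersion. Obox6, Crxos and Duxbl1 varied more between lines than most genes (SD percentiles 75.2 to 99.2 over both groups), so the 89.5% does not hold for them.

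The members and gene lists were chosen with earlier results of these data known. Genes named beside the members were, by rule, Obox, Duxbl and Duxf3 genes with a count, Crx, the 2 most abundant called genes of each list, called genes within 500 kb of a member or Obox gene, and the 3 genes most correlated with each tested member. Nobox and Dppa2, Klf5, Klf17, Nr5a2 and Zfp352 are named as called genes of short lists. Alternatives were DESeq2 1.42.0, limma-voom (limma 3.58.1), other normalization factors and filters, the line number as a block, 1 technical replicate of each line, the 12 libraries taken separately, a threshold of 0.01 and leaving out each line. Alternatives for the Obox sub-sums and for genes outside the members were added after seeing the data.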

Additional observations from a re-analysis of the deposited data

How the results depend on the processing

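No result changed direction under any alternative. The number of members called higher was 1 as reported, 2 with no filter on low counts or with the 12 libraries as separate samples, 0 at a threshold of 0.01, and 0 to 2 when 1 line was left out, with 0 members called lower throughout. Obox6 lost its call at 0.01 and, at 0.05, without TPS replicate 3 (log2 fold change 3.05, adjusted p = 0.0503), and leaving out 1 line gave 2.89 to 4.49. Crxos passed with no filter (2.08) and with 12 libraries (2.15), where repeat libraries of a line are not replicates. Leaving out 1 line moved Crxos from 1.54 to 3.52 and Duxbl1 from 0.45 to 1.70, the latter being called only without EPS replicate 2. Among all genes, the number called higher was 4067 of 15512 tested with 12 libraries and 3290 of 32608 with no filter. It was 873 of 17468 at 0.01, and 1617 to 2234 of 17784 to 18221 tested with 1 line left out. The number called lower was 745 with library size alone, 3610 with 12 libraries, 258 at 0.01 and 493 to 1047 with 1 line left out. With line number as a replicate block, the log2 fold change of Obox6 was 3.63 and it kept its call, Obox4-ps27 lost its call (adjusted p = 0.0532) and 721 genes were called lower. The labels do not say whether same-numbered lines belong together. Correlations between same-numbered lines of 0.023, -0.121 and 0.038 cannot decide it, since there are only 3 such pairs. Depth limits Obox1, Obox2, Obox3 and Obox5, which no analysis with a filter could test, and EPS levels of Obox6, which rest on 1 to 18 counts per library.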
